A study of Mus musculus with 4 samples.

Results

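The 10 genes of the mouse major histocompatibility complex (MHC) class II presentation set were followed across the leukocytes of the colon. They were taken by gene symbol, all 10 of 10 were found in each of 4 count tables that hold 31053 genes, and no measured value entered the choice. H2-Aa and H2-Ab1 encode the alpha and beta chain of the I-A molecule, and H2-Eb1 encodes the beta chain of the I-E molecule. Cd74 encodes the invariant chain, Ciita the class II transactivator, H2-DMa, H2-DMb1 and H2-DMb2 the chains of H2-DM, and H2-Oa and H2-Ob the chains of H2-O. The cells were CD45+ leukocytes (CD45 is a surface protein shared by white blood cells) sorted on a BD FACSAria Fusion from total colon of WT C57BL/6 mice, with 2 libraries from mice under control treatment and 2 from mice under daily restraint stress for 7 days. Age and sex of the mice, and whether a library holds cells of 1 animal or of a pool, were not given in the sources used here, so p-values measure the spread between these libraries, which may be technical. In these 10x Genomics droplet libraries each captured transcript is counted once, as a unique molecular identifier (UMI).

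The class II pathway displays peptides from ingested or membrane proteins to CD4 T cells. The alpha and beta chains pair in the endoplasmic reticulum with the invariant chain, which fills the peptide groove and carries the complex to endosomes, where proteases cut it down to a short remnant called CLIP. H2-DM releases CLIP and lets peptides bind, and H2-O binds to H2-DM and holds it back, mainly in B cells. Ciita does not bind DNA itself: it docks on factors that sit on the X and Y boxes of these promoters and switches the genes on together. Dendritic cells, macrophages and B cells carry class II, whereas mouse T cells make little of it, and B cells that become plasma cells lose Ciita. In the colon, newly arrived monocytes are known to gain class II as they turn into resident macrophages.

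The libraries held 2941, 6124, 10259 and 5591 barcodes (control 1, control 2, stress 1, stress 2; all sets of 4 values below keep this order) and 13806189 to 39074920 UMIs, and 2509, 5356, 7777 and 4001 cells were kept with at least 500 UMIs, at most 10% mitochondrial UMIs and no doublet call. Pairs of libraries shared 3 to 19 barcodes. Each cell was typed by marker genes that include no member of the set, and names such as resting B stand for cells resembling that type by these markers. The median depth was 2310 UMIs in 1281 resting B cells, 4913 in 444 C1q-high macrophages, 6974 in 272 type 2 conventional dendritic cells (cDC2) and 14802 in 1891 plasma cells, in which immunoglobulin took 62.8 to 68.1% of UMIs. Levels are therefore given as CPM, the UMIs of a gene per 1000000 UMIs other than immunoglobulin, summed over the cells of a type in a library. The types were not cleanly separated everywhere: control library 2 held only 26 C1q-high macrophages and 14 monocytes in transition, and 166 and 279 of 1302 phagocytes lay within 2-fold of the lower and upper cut that divide monocytes, transition cells and macrophages.

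Of the 10 genes, 8 lie in the MHC region of chromosome 17, between H2-Oa (chr17:34092340-34095234 on the plus strand) and H2-Eb1 (chr17:34305867-34316674 on the plus strand), on GRCm38 (the assembly of mm10) with GENCODE vM21 annotation. Between them lie H2-DMa (chr17:34119541-34139101 on the plus strand), H2-DMb2 (chr17:34143307-34151555 on the plus strand), H2-DMb1 (chr17:34153072-34160230 on the plus strand), H2-Ob (chr17:34238903-34254414 on the plus strand), H2-Ab1 (chr17:34257689-34269419 on the plus strand) and H2-Aa (chr17:34282744-34287823 on the minus strand). Ciita (chr16:10480059-10528418 on the plus strand) and Cd74 lie elsewhere. The coordinates span each gene's exons, introns and untranslated regions. Promoter windows (250 bases before and 50 after a transcription start; RefSeq, build GRCm38.p6) were found by symbol for 6 of these genes with 1 window each and for H2-DMa with 2. H2-Ab1 and Ciita had none. Those of H2-Aa, H2-Eb1, H2-DMb1, H2-DMb2, H2-Oa and H2-Ob are shown because a Y box lies within 130 bases of each start. H2-DMa is not shown: of its 2 windows, the first held neither box and the second a Y box at position -199 and no X box core. RefSeq starts can lie inside the GENCODE span. The 130 bases before each start are printed 5′ to 3′ on the gene's strand, with a Y box (GATTGG, or CCAATC on the other strand) and an X box core (AACNNATG) in capitals:
H2-Aa, chr17:34287824-34287953, minus strand: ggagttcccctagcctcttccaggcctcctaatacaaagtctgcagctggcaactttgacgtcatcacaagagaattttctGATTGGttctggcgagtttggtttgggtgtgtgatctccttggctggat
H2-Eb1, chr17:34305737-34305866, plus strand: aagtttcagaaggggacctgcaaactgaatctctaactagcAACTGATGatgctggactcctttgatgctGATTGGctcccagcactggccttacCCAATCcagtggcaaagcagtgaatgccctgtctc
H2-DMb1, chr17:34153061-34153190, plus strand: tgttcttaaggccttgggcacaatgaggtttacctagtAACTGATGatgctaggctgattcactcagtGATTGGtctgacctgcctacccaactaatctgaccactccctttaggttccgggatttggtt
H2-DMb2, chr17:34145119-34145248, plus strand: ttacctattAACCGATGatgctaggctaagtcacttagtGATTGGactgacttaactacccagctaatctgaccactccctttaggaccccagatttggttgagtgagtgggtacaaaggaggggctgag
H2-Oa, chr17:34092249-34092378, plus strand: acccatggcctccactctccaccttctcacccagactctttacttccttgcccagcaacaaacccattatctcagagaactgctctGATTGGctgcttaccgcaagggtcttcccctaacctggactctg
H2-Ob, chr17:34238775-34238904, plus strand: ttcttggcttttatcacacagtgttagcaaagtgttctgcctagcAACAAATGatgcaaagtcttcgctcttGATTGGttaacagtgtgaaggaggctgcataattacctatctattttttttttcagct
The 6 windows shown hold the Y box on the gene's strand, starting between positions -91 (H2-DMb2) and -44 (H2-Oa) relative to the start. H2-Eb1, H2-DMb1, H2-DMb2 and H2-Ob also hold the X box core, which does not overlap the Y box. Searched on both strands of 32851 RefSeq windows of 300 bases, the Y box occurred in 16.1% and the X box core in 8.86%. The X box core followed by a Y box on the gene's strand, 15 to 25 bases apart, occurred in 9 windows (0.0274%), those of H2-Eb1, H2-DMb1, H2-DMb2, H2-Ob, the related H2-Eb2, BC051142, Dnah6, Dpm1 and Gm20716. The letters and the gap were chosen with these promoters known, so the count describes them and tests nothing, and a missing match says only that these letters are not in the window.

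Transcripts of the chains H2-Aa, H2-Ab1 and H2-Eb1 were highest in C1q-high macrophages and conventional dendritic cells, and lower in C1q-low monocytes and in most B cells. They were lower again in germinal centre B and plasma cells, and near the T-cell level in innate lymphoid cells. These are RNA levels. H2-Ea, which encodes the alpha chain of I-E, was not analysed, so H2-Eb1 levels do not show that I-E molecules were displayed. H2-Aa stood at 15946, 13465, 12653 and 12614 CPM in C1q-high macrophages and at 14012, 9888, 10826 and 9993 CPM in cDC2. In resting B cells it stood at 6372, 6181, 5427 and 5078 CPM. In T cells, which served as the background of free RNA and leftover doublets, H2-Aa was 21.4, 82.8, 56.2 and 74.1 CPM, lowest in control library 1. The order of the means for H2-Ab1 over the 13 types present in all 4 libraries was C1q-high macrophages (13496 ± 469 CPM, SD, n = 4), cDC2 (11441 ± 688), type 1 conventional dendritic cells (cDC1, 11116 ± 665), monocytes in transition (9197 ± 1564), C1q-low monocytes (5441 ± 534), activated B cells (4787 ± 389), resting B cells (4645 ± 516), other B cells (4443 ± 501), germinal centre B cells (2722 ± 182) and plasma cells (685 ± 143), with ILC2, natural killer (NK) or ILC1 cells and T cells between 63.7 and 105 CPM. The library ranges of neighbours in this order overlapped from cDC2 to monocytes in transition, from C1q-low monocytes to other B cells, and among the last 3 types. They did not overlap between C1q-high macrophages and cDC2, monocytes in transition and C1q-low monocytes, other and germinal centre B cells, germinal centre B and plasma cells, or plasma cells and ILC2. H2-Eb1 broke at the same places: C1q-high macrophages at 13177, 13059.7, 12169 and 12202 CPM, cDC2 at 11669, 8908, 10132 and 9381 CPM and plasma cells at 345, 602, 438 and 322 CPM. For H2-Aa the ranges of C1q-high macrophages and cDC2 overlapped, as did those of plasma and NK or ILC1 cells.

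**Figure D1:**
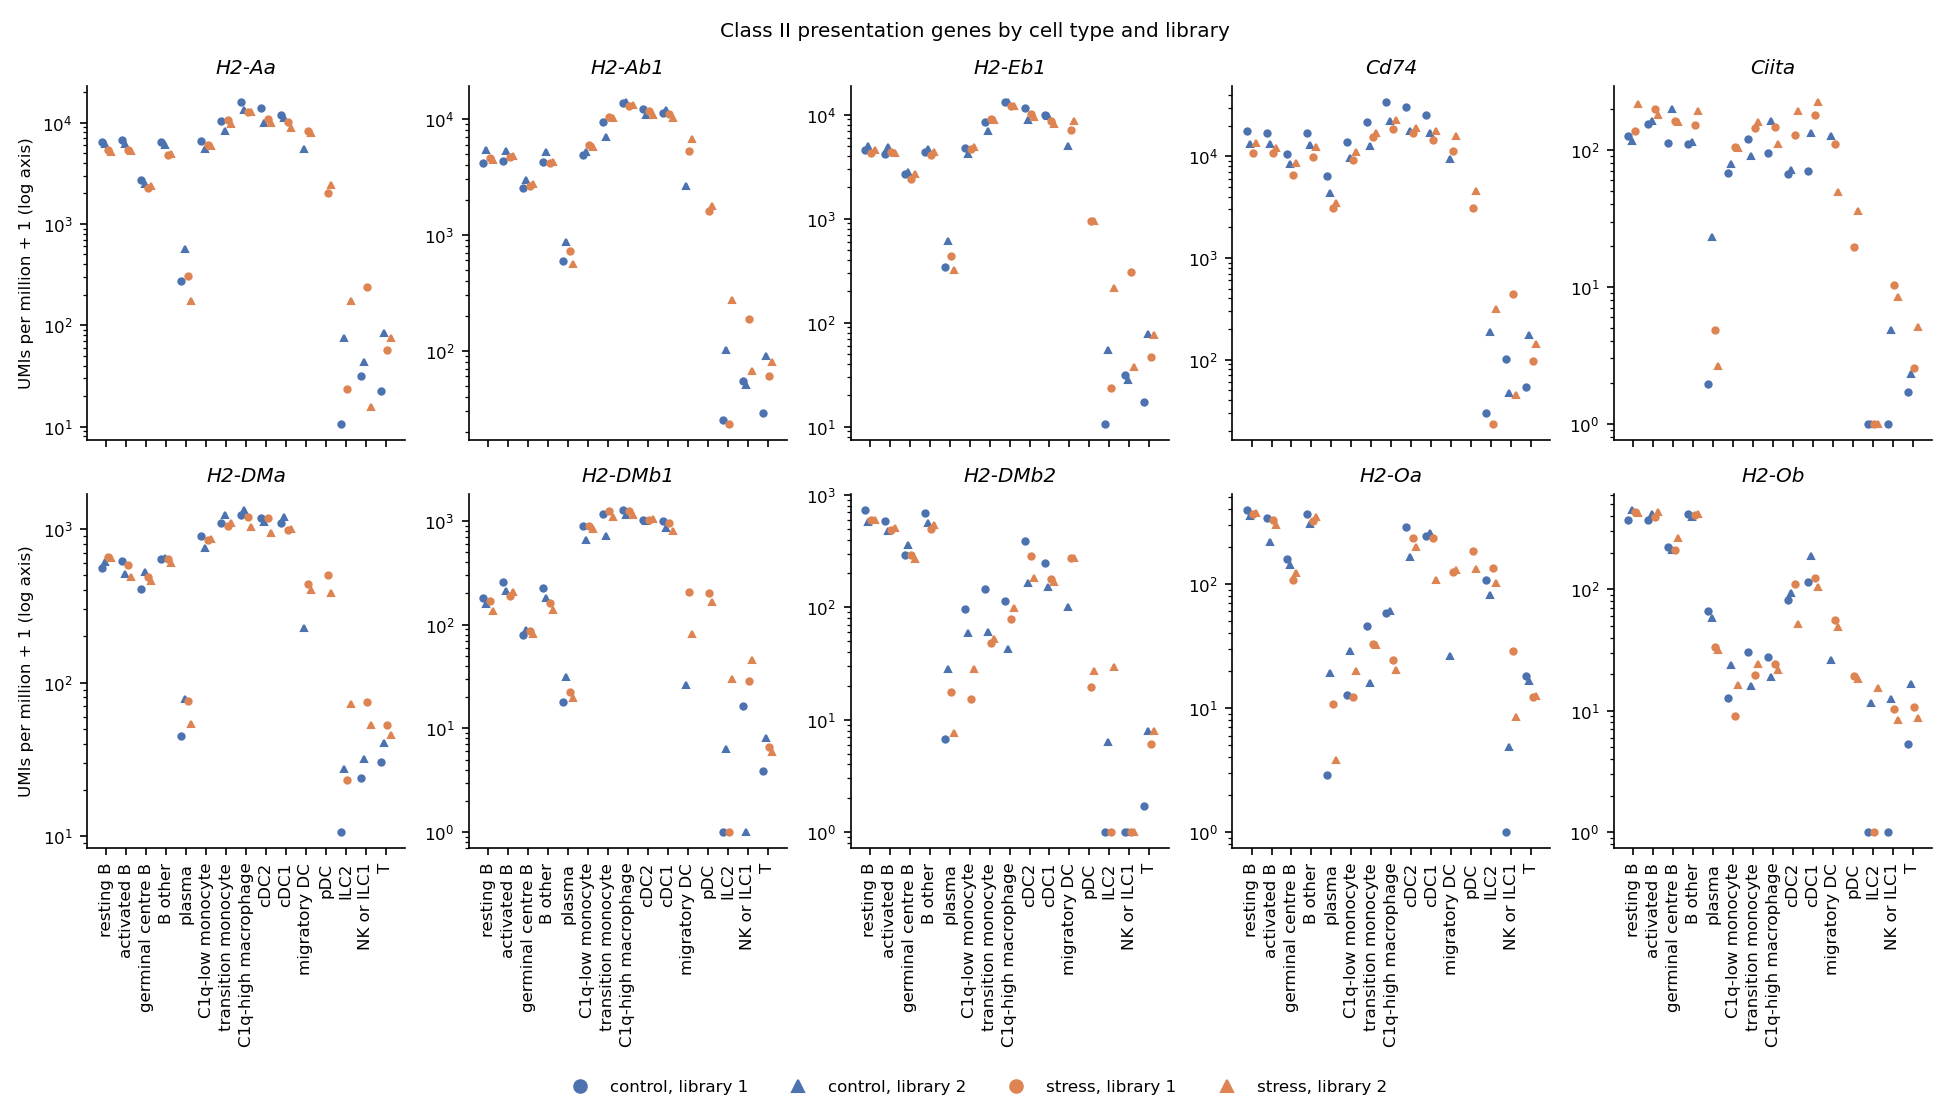
Level of each of the 10 genes (CPM plus 1, log axis) in 15 cell types, with a point for each library of at least 10 cells (circles, library 1; triangles, library 2; blue, control; orange, stress). H2-Aa, H2-Ab1, H2-Eb1 and Cd74 follow 1 profile, H2-DMb2, H2-Oa and H2-Ob peak in B cells, and H2-Oa stays up in ILC2.

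Within the B lineage, 9 of the 10 genes were lower in germinal centre than in resting B cells, and all 10 were lower, with larger differences, in plasma cells. H2-Aa was 2717, 2456, 2271 and 2372 CPM in germinal centre B cells and 272, 563, 304 and 172 CPM in plasma cells. Neither range touched that of resting B cells. In the paired fit (library as a block; edgeR's quasi-likelihood test with Benjamini-Hochberg adjustment over all genes of the fit), 9 of 10 members were lower in germinal centre than in resting B cells, where 28.1% of 7066 genes were lower. The median log2 difference of the 10 was -1.14, against -0.01 over all genes. H2-Aa fell by 1.52 (log2, SE 0.05, adjusted p = 2.11e-23), H2-Ab1 by 1.05, H2-Eb1 by 1.08 and Cd74 by 0.99 (SE 0.05, 0.05 and 0.04). The exception was Ciita, at 125, 116, 137 and 216 CPM in resting and 111, 198, 162 and 159 CPM in germinal centre B cells (-0.20 ± 0.15, adjusted p = 0.287). Its mean level was higher in germinal centre B cells, opposite in sign to the fitted value, so no direction is given. In plasma cells, which secrete antibody, all 10 were lower than in resting B cells, where 30.2% of 7445 genes were lower, with a median of -3.50 against -0.02 over all genes. H2-Aa changed by -4.36 ± 0.34, adjusted p = 0.00121, H2-Ab1 by -2.87 ± 0.09, adjusted p = 1.70e-17, and H2-Eb1 by -3.56 ± 0.13, adjusted p = 2.61e-11. Control library 2 was the highest of the 4 in plasma cells for each of these chains, and the T-cell marker Cd3d was also highest there (11.4, 46.1, 11.4 and 12.4 CPM), as was the summed macrophage list (810.2, 1746, 686 and 447 CPM). Their part in that library's values was not tested. Activated B cells, marked by Egr3 and Myc, were not past the test against resting ones in the 3 chains (H2-Aa -0.02 ± 0.05, adjusted p = 0.903; H2-Ab1 0.00 ± 0.05, adjusted p = 0.995; H2-Eb1 -0.09 ± 0.05, adjusted p = 0.316).

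In the phagocytes the chains rose from monocyte to macrophage. H2-Ab1 was 4844, 5159, 6004 and 5758 CPM in C1q-low monocytes, 9337, 6950.5, 10412 and 10089.8 CPM in monocytes in transition and 13804, 13953, 12935 and 13293 CPM in C1q-high macrophages. Every library rose at each step. Between the ends, H2-Aa differed by 1.27 ± 0.08, adjusted p = 6.47e-15, H2-Ab1 by 1.40 ± 0.08, adjusted p = 2.78e-15, and H2-Eb1 by 1.54 ± 0.08, adjusted p = 1.54e-16. The sizes depended on the processing, while the calls were kept in all 13 alternatives. Over these, H2-Aa ran from 0.77 to 1.32, H2-Ab1 from 0.83 to 1.48 and H2-Eb1 from 0.97 to 1.61. Altogether 8 of 10 members were higher in C1q-high macrophages, where 9.54% of 5871 genes were higher, and the median of the 10 was 1.13 against 0.01 over all genes. From C1q-low monocytes to the transition, 8 of 9 tested members were higher (1.99% of 4873 genes higher and 3.65% changed; median 0.72 against 0.01), and from the transition to C1q-high macrophages 4 of 10 were (2.52% of 5202 genes; median 0.37 against 0.00), these being H2-Aa, H2-Ab1, H2-Eb1 and Cd74. In the last step the call of H2-Ab1 was lost without control library 1 (0.64, adjusted p = 0.375), and that of Cd74 without control library 1 (0.57, adjusted p = 0.190). With cells sorted into 6 bins of macrophage-marker UMIs per 10000, the sum of H2-Aa, H2-Ab1 and H2-Eb1 went from 12929, 17365, 14886 and 16611 CPM in cells with none to 45045, 39816, 39210.2 and 40040.0 CPM in cells with 120 or more. The summed B-cell list stayed at 68.6 to 215 CPM in the monocytes and 59.6 to 158 CPM in the macrophages.

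**Figure D2:**
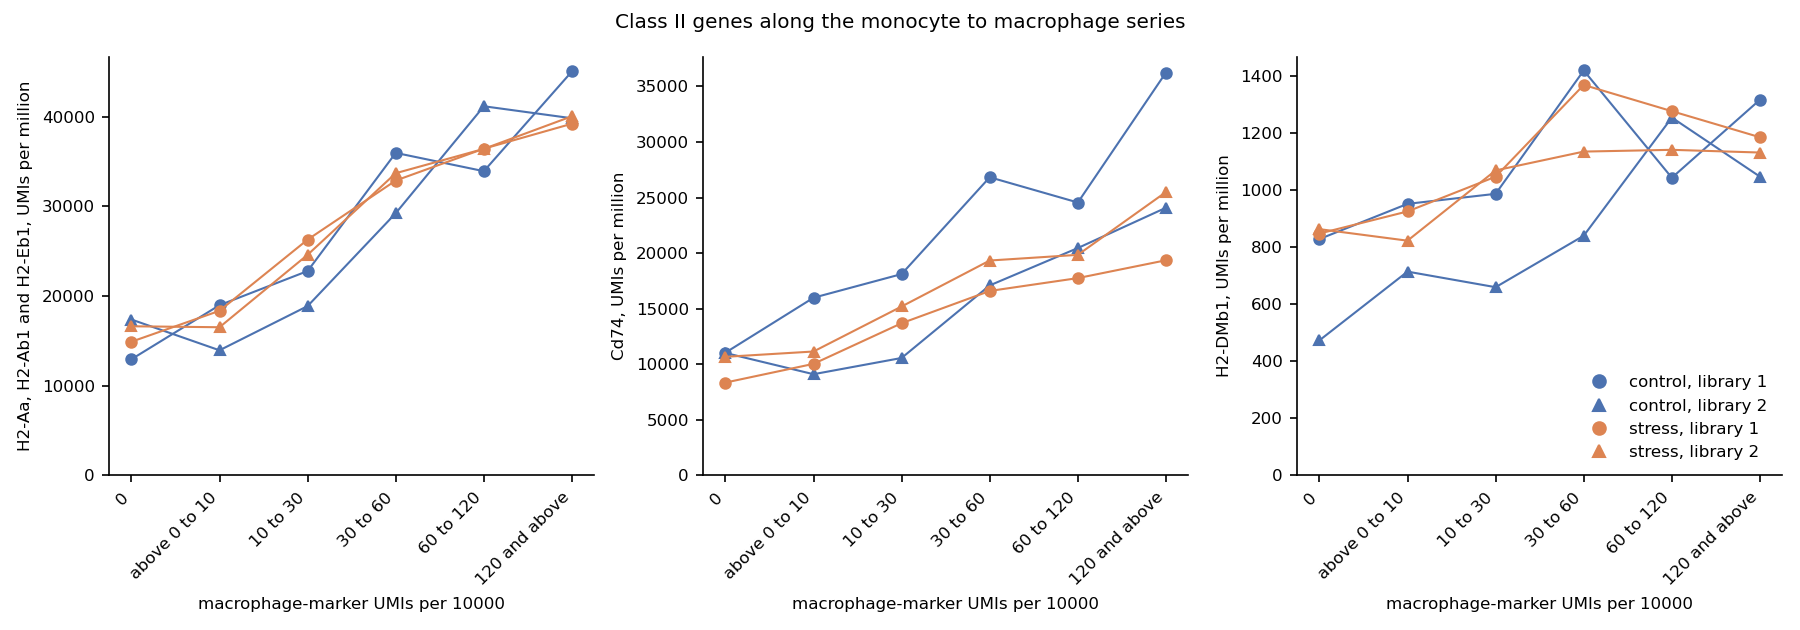
Levels (CPM) of the summed H2-Aa, H2-Ab1 and H2-Eb1, of Cd74 and of H2-DMb1 in phagocytes binned by macrophage-marker UMIs per 10000, with a line for each library. The sum of the 3 chains lies between 12929 and 17365 CPM in the first bin and between 39210.2 and 45045 CPM in the last. The bins of 10 to 30 and 30 to 60 hold 8 and 6 cells in control library 2.

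C1q-low monocytes were uneven cell by cell. Each cell of at least 1000 UMIs was thinned to 1000, and its UMIs of H2-Aa, H2-Ab1, H2-Eb1 and Cd74 were summed. The median sum was 21, 19.5, 21 and 22 per monocyte. Of the monocytes 13.3, 18.8, 13.2 and 13.3% had none, and the 90th percentile was 70.1, 53, 56 and 58. In C1q-high macrophages the median was 73, 59.5, 56 and 59 and at most 1.96% had none. Cells under 1000 UMIs were left out: 40 of 184, 4 of 26, 8 of 118 and 14 of 116 macrophages, and 1 of 61, 3 of 67, 4 of 315 and 5 of 178 monocytes. Resting B cells were narrower, with a median of 32, 29, 25 and 29 and a 10th percentile of 21.8, 20, 16 and 18. Unthinned, 85.4% ± 4.14 (SD, n = 4) of C1q-low monocytes (median 4903 UMIs) had a UMI of H2-Aa, H2-Ab1 or H2-Eb1, and 22.9% ± 10.97 of T cells (median 2951 UMIs) did, as a measure of background. Thinned to 1000 UMIs the shares were 76.6% and 8.74%.

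Among dendritic cells, cDC1 were not past the test against cDC2 in any chain, plasmacytoid dendritic cells (pDC) were far lower and migratory dendritic cells, marked by Fscn1 and Ccl22, were lower in part. cDC2 were below C1q-high macrophages in H2-Aa (-0.35 ± 0.10, adjusted p = 0.0140), H2-Ab1 (-0.29 ± 0.10, adjusted p = 0.0386) and H2-Eb1 (-0.39 ± 0.10, adjusted p = 0.00814). With Cd74 these were 4 members lower and another 3 higher of 10, where 11.7% of 5224 genes were lower and 10.1% higher (median of the 10 -0.22, of all genes 0.02). The lower calls were lost without a library: H2-Aa without control library 2 (-0.28, adjusted p = 0.123), stress library 1 (-0.38, adjusted p = 0.0799) and stress library 2 (-0.32, adjusted p = 0.0521); H2-Ab1 without control library 2 (-0.23, adjusted p = 0.214), stress library 1 (-0.33, adjusted p = 0.129) and stress library 2 (-0.26, adjusted p = 0.130); H2-Eb1 without control library 2 (-0.31, adjusted p = 0.0970) and stress library 1 (-0.43, adjusted p = 0.0573). cDC1 against cDC2 gave 1 member of 10 past the test, H2-Ob (7.63% of 4118 genes higher; median of the 10 -0.09, of all 0.01). H2-Aa differed by -0.08 ± 0.09, H2-Ab1 by -0.04 ± 0.08 and H2-Eb1 by -0.13 ± 0.09 (log2 ± SE). pDC reached 10 cells only in the stress libraries, 14 in each, where H2-Aa was 2005 and 2421 CPM and H2-Eb1 938 and 942 CPM. In those 2 libraries 9 of 10 members were lower than in cDC2 (16.7% of 4526 genes lower; median -2.66 against -0.06), H2-Aa by 2.51 ± 0.19, H2-Ab1 by 3.02 ± 0.20 and H2-Eb1 by 3.66 ± 0.21 (log2 ± SE), with only 1 residual degree of freedom. With Leiden clusters in place of the gates H2-Eb1 was -2.96, adjusted p = 6.89e-06 (-3.66 with the gates), Cd74 was -1.89, adjusted p = 1.21e-04 (-2.52 with the gates), H2-DMa was -0.93, adjusted p = 0.00964 (-1.57 with the gates), H2-DMb1 was -1.41, adjusted p = 0.0102 (-2.82 with the gates) and H2-DMb2 was -2.38, adjusted p = 0.00716 (-3.46 with the gates). Ciita (-2.89, adjusted p = 0.0974) and H2-Ob (-2.33, adjusted p = 0.447) did not pass in DESeq2. In migratory dendritic cells (15, 20 and 11 cells in control 2, stress 1 and stress 2), H2-Ab1 was 2611, 5259.8 and 6696 CPM, against 10894, 11728 and 10863 CPM in the cDC2 of the same libraries, a difference of -1.26 ± 0.22, adjusted p = 3.82e-04. Of 10 members 5 were lower there (12.2% of 3221 genes lower; median -0.71 against -0.15). H2-Aa (-0.49 ± 0.17, adjusted p = 0.0358) lost its call without control library 2 (-0.30, adjusted p = 0.442), stress library 1 (-0.58, adjusted p = 0.0921) and stress library 2 (-0.66, adjusted p = 0.0547). Macrophage-marker UMIs reached 5069 CPM in the migratory cells of stress library 1, against 854 and 1394 CPM in the other two, and their part was not tested.

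Cd74, the invariant chain (gene at chr18:60803848-60812652 on the plus strand), was also highest in C1q-high macrophages and conventional dendritic cells, with wide library ranges. Control library 1 was the highest of the 4 in each of the 10 B-lineage, phagocyte and dendritic types that all libraries held. It was 34029, 22289, 18514 and 22492 CPM in C1q-high macrophages, 17551, 13031, 10815 and 13620.5 CPM in resting B cells and 6449.6, 4365, 3068 and 3498 CPM in plasma cells. T cells had 52.7, 172, 94.98 and 142 CPM. In plasma cells Cd74 stayed above the T-cell level in every library. Its difference from resting B cells was -1.79 ± 0.08, adjusted p = 1.11e-13, beside values from -4.36 to -2.87 for the 3 chains. Its UMIs per summed UMI of H2-Aa, H2-Ab1 and H2-Eb1 were 5.33, 2.14, 2.09 and 3.34 in plasma cells against 1.16, 0.787, 0.756 and 0.971 in resting B cells. The ratios of these 2 types did not overlap. In C1q-high macrophages the ratio was 0.793, 0.551, 0.490 and 0.590. As a share of cells, 99.1% ± 0.863 of plasma cells and 13.9% ± 5.31 of T cells had a Cd74 UMI (SD, n = 4; median depths 14802 and 2951 UMIs), and 69.9% and 5.85% at 1000 UMIs per cell. Those 1000 UMIs included immunoglobulin, the larger part of UMIs in plasma cells, so the 2 types were not matched in other UMIs. The rise from C1q-low monocytes to C1q-high macrophages was 1.23 ± 0.07, adjusted p = 6.03e-15, and cDC2 were -0.26 ± 0.09, adjusted p = 0.0449 relative to the macrophages, a call lost without control library 2 (-0.21, adjusted p = 0.232), stress library 1 (-0.30, adjusted p = 0.149) and stress library 2 (-0.24, adjusted p = 0.141). Migratory dendritic cells were at -0.56 ± 0.16, adjusted p = 0.0163 relative to cDC2, a call lost without control library 2 (-0.36, adjusted p = 0.323) and stress library 1 (-0.58, adjusted p = 0.0871).

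Ciita, the transactivator, was measured in few UMIs. Among the 13 types present in all 4 libraries, it separated the presenting types other than plasma cells from plasma, innate lymphoid and T cells. Activated B cells had 152, 162, 199 and 178 CPM, cDC1 69.01, 133, 178 and 222 CPM and C1q-high macrophages 94.7, 161, 147 and 110.1 CPM. Neighbours in its order overlapped from activated B cells down through germinal centre B, cDC1, resting and other B cells, C1q-high macrophages, monocytes in transition and cDC2 to C1q-low monocytes (88.2 ± 18.4 CPM, SD, n = 4). Plasma cells followed after a gap, at 0.951, 22.04, 3.88 and 1.67 CPM. T cells had 0.713, 1.30, 1.54 and 4.12 CPM, and no Ciita UMI was found in 144 ILC2, which allows a share of up to 2.08% of cells with a UMI (intervals and floors here cover counting error only). The fall from resting B to plasma cells was -5.18 ± 0.90, adjusted p = 0.0155. It was lost without control library 1 (-5.04, adjusted p = 0.0512) and stress library 1 (-5.08, adjusted p = 0.0939), and without control library 2, whose plasma cells had the highest Ciita, it was -6.21. Without stress library 2 it was -4.23, and with doublets kept -4.23. C1q-high macrophages were above C1q-low monocytes by 0.53 ± 0.17, adjusted p = 0.0272, lost without control library 1 (0.48, adjusted p = 0.0572), control library 2 (0.41, adjusted p = 0.120) and stress library 1 (0.53, adjusted p = 0.110) and kept in 6 of 13 alternatives. The first part of that step, from monocytes to the transition (0.58 ± 0.16, adjusted p = 0.0312), was lost without control library 1 (0.54, adjusted p = 0.0940), stress library 1 (0.64, adjusted p = 0.240) and stress library 2 (0.52, adjusted p = 0.381). Relative to resting B cells, cDC2 were at -0.42 ± 0.17, adjusted p = 0.0387, lost without control library 1 (-0.33, adjusted p = 0.152) and control library 2 (-0.31, adjusted p = 0.168).

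H2-DM, the editor that frees the groove of CLIP, was made with a different beta-chain transcript in B cells and in phagocytes. H2-DMb1 was 1265, 1149.9, 1233 and 1137 CPM in C1q-high macrophages and 178, 156, 169.9 and 135 CPM in resting B cells. H2-DMb2 was 112, 41.7, 77.2 and 97.99 CPM in the macrophages and 729, 577, 597 and 598 CPM in the B cells. The libraries of the cell types did not overlap for either gene, and the directions were opposite. Of the summed UMIs of both beta chains, H2-DMb2 made up 80.3, 78.7, 77.8 and 81.6% in resting B cells and 8.13, 3.50, 5.89 and 7.93% in C1q-high macrophages. cDC2 (27.5, 14.3, 22.01 and 14.7%) and cDC1 (19.9, 15, 15.8 and 17.3%) lay between, nearer to the macrophages. The mean share was 78.3 ± 1.47% in germinal centre and 70.5 ± 1.36% in activated B cells, 5.67 ± 3.90% in C1q-low monocytes and 6.69 ± 3.33% in monocytes in transition (SD, n = 4). In the libraries with at least 10 of them, migratory dendritic cells stood apart from cDC1 and cDC2 with 80, 57.1 and 77.3% in control 2, stress 1 and stress 2. The lowest was the library with the most macrophage-marker UMIs, while Cd79a, a B-cell marker, was 25.1, 0 and 16.02 CPM in these cells. The shares rest on few UMIs: all 55 migratory cells held 41 of H2-DMb1 and 45 of H2-DMb2. These near-equal counts include the 9 cells of control library 1, so those cells had a lower share than each library given. In the fits, cDC2 were above resting B cells in H2-DMb1 by 2.68 ± 0.14, adjusted p = 4.19e-13, and below them in H2-DMb2 by -1.36 ± 0.17, adjusted p = 9.40e-07. In all, 6 of 10 members were higher in cDC2 (29.2% of 5747 genes higher) and 4 lower (25.9%), with a median of 0.71 against -0.03 over all genes; the 6 were H2-Aa (0.95 ± 0.11), H2-Ab1 (1.30 ± 0.11), H2-Eb1 (1.12 ± 0.11), Cd74 (0.59 ± 0.10), H2-DMa (0.82 ± 0.13) and H2-DMb1. Relative to C1q-high macrophages cDC2 had more H2-DMb2 (1.53 ± 0.19, adjusted p = 5.64e-06), and relative to cDC2 migratory dendritic cells had less H2-DMb1 (-3.22 ± 0.39, adjusted p = 4.92e-06), with H2-DMb2 not past the test (0.07 ± 0.36, adjusted p = 0.926). Without stress library 1 the H2-DMb1 difference was -4.16.

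**Figure D3:**
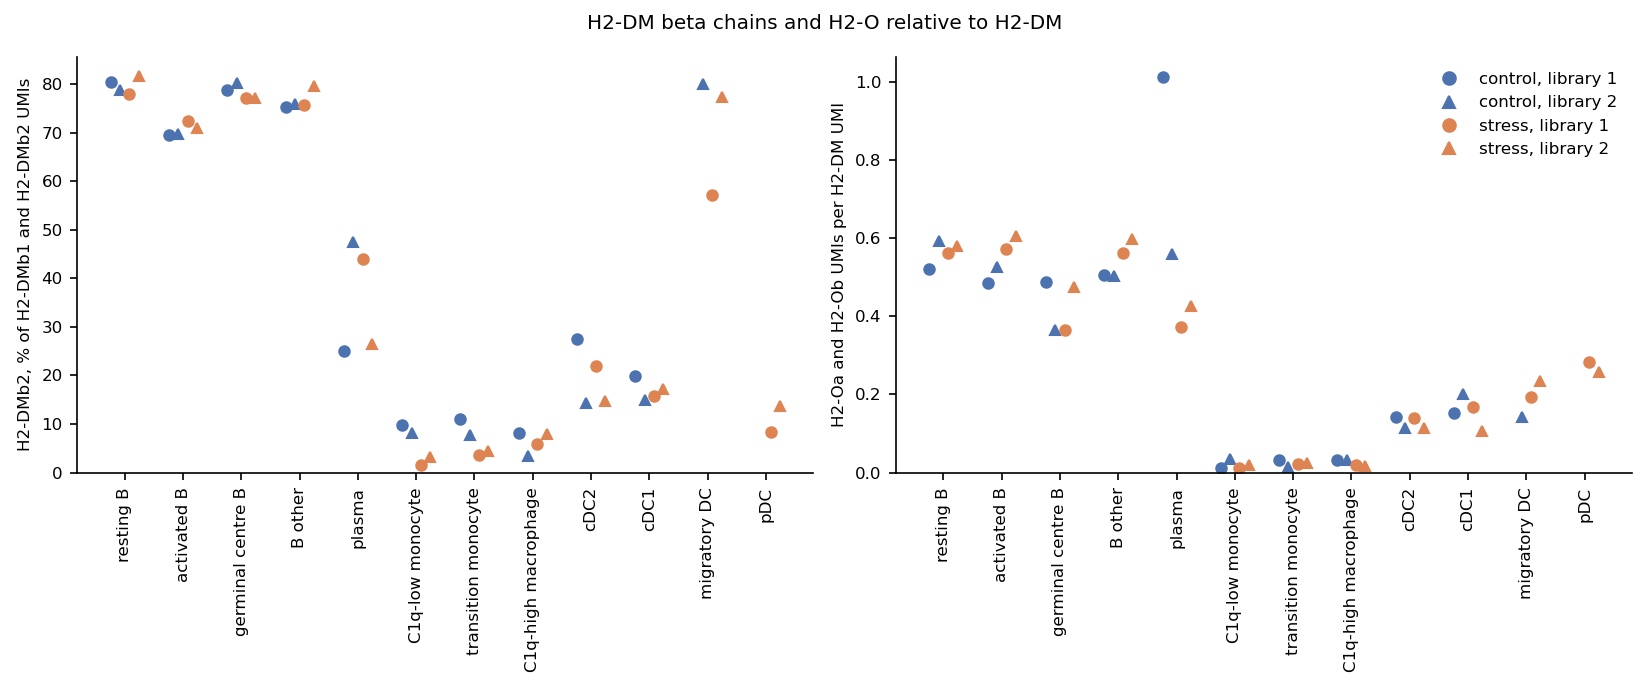
Left, H2-DMb2 as a percentage of the summed UMIs of H2-DMb1 and H2-DMb2; right, UMIs of H2-Oa and H2-Ob per UMI of H2-DMa, H2-DMb1 and H2-DMb2; 12 cell types, a point for each library with at least 10 cells. B cells and migratory dendritic cells lie high on the left, and monocytes and macrophages lie near 0 on the right.

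H2-DMb1 and H2-DMb2 are related copies, so some reads can match both. Of the last 500 bases of their transcripts, which a 3′ library reads, 12.7% of the 90-base runs of H2-DMb1 also occur in H2-DMb2 and 0% of those of H2-DMb2 occur in H2-DMb1. What became of such reads in the deposited counts was not tested, so the levels of the pair are uncertain to that extent. H2-DMa, the alpha chain, was 1234, 1317, 1193 and 1028 CPM in C1q-high macrophages, 554, 609, 651 and 643 CPM in resting B cells and 403, 521, 486 and 455 CPM in germinal centre B cells. It rose from monocytes to macrophages by 0.59 ± 0.11, adjusted p = 9.77e-05, as H2-DMb1 did (0.64 ± 0.11, adjusted p = 2.20e-05), while H2-DMb2 did not pass (1.28 ± 0.49, adjusted p = 0.178). With Leiden clusters in place of the gates neither H2-DMa (0.31, adjusted p = 0.0740) nor H2-DMb1 (0.24, adjusted p = 0.158) passed. Up to the transition the values were 0.40 ± 0.09, adjusted p = 0.00480 for H2-DMa, 0.40 ± 0.09, adjusted p = 0.00497 for H2-DMb1 and 0.92 ± 0.24, adjusted p = 0.0278 for H2-DMb2. Those of H2-DMa were lost without stress library 1 (0.43, adjusted p = 0.0843), of H2-DMb1 without control library 1 (0.39, adjusted p = 0.0636), stress library 1 (0.35, adjusted p = 0.238) and stress library 2 (0.38, adjusted p = 0.0821), and of H2-DMb2 without control library 1 (1.05, adjusted p = 0.0889), stress library 1 (0.67, adjusted p = 0.405) and stress library 2 (0.91, adjusted p = 0.184). In germinal centre B cells H2-DMa fell by 0.69 ± 0.09, H2-DMb1 by 1.19 ± 0.13 and H2-DMb2 by 1.32 ± 0.10 relative to resting B cells (log2 ± SE). In plasma cells they fell by 3.43 ± 0.13, 2.97 ± 0.16 and 5.71 ± 0.46. With doublets kept the H2-DMb2 difference was -5.00, adjusted p = 1.31e-07. Activated B cells had more H2-DMb1 (0.37 ± 0.12, adjusted p = 0.0471) and less H2-DMb2 (-0.33 ± 0.09, adjusted p = 0.0118) than resting ones. With H2-Oa these were 1 member higher and 2 lower of 10, where 6.59% of 5854 genes were higher and 4.65% lower (median of the 10 -0.09, of all -0.02). None of the 3 passed in DESeq2. The H2-DMb1 call was lost without control library 1 (0.35, adjusted p = 0.130), control library 2 (0.34, adjusted p = 0.182), stress library 1 (0.47, adjusted p = 0.0551) and stress library 2 (0.31, adjusted p = 0.130), and the H2-DMb2 call without control library 1 (-0.31, adjusted p = 0.0633) and stress library 1 (-0.32, adjusted p = 0.0879). Migratory dendritic cells had less H2-DMa than cDC2 (-1.55 ± 0.28, adjusted p = 3.51e-04).

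H2-O, the partner that restrains H2-DM, was highest in resting, activated and other B cells and low in phagocytes. Conventional dendritic cells lay between, with mean H2-Ob below and mean H2-Oa above that of germinal centre B cells (132 CPM). H2-Ob was 372, 446, 428 and 427 CPM in resting B cells, 80.2, 91.7, 109.5 and 51.1 CPM in cDC2 and 26.6, 17.9, 23.2 and 20.6 CPM in C1q-high macrophages. H2-Oa was 391, 350.0, 367 and 370.1 CPM in resting B cells, 287, 162, 235 and 198 CPM in cDC2 and 57.7, 59.6, 23.2 and 19.4 CPM in C1q-high macrophages. For both genes the 3 types did not overlap in their library ranges. Their summed UMIs per H2-DM UMI were 0.522, 0.593, 0.561 and 0.579 in resting B cells, 0.489, 0.364, 0.366 and 0.475 in germinal centre B cells, 0.143, 0.113, 0.139 and 0.115 in cDC2, and 0.0323, 0.0309, 0.0185 and 0.0176 in C1q-high macrophages. Germinal centre B cells had less H2-Oa (-1.83 ± 0.11, adjusted p = 5.06e-16) and H2-Ob (-1.19 ± 0.10, adjusted p = 2.82e-12) relative to resting B cells. Activated B cells had less H2-Oa (-0.40 ± 0.11, adjusted p = 0.0101; lost without control library 2 (-0.30, adjusted p = 0.150)). In plasma cells H2-Oa reached 1.90, 18.04, 9.69 and 2.78 CPM, below the T-cell range of 11.3 to 17.1 CPM in 3 libraries and above it in control library 2, while H2-Ob was 65.6, 57.1, 32.2 and 30.3 CPM, above the T-cell range of 4.28 to 15.5 CPM. Relative to resting B cells these were differences of -5.85 ± 0.53 and -3.43 ± 0.21 (log2 ± SE). With doublets kept that of H2-Oa was -5.06, adjusted p = 9.44e-14. cDC2 exceeded the macrophages in H2-Oa by 2.64 ± 0.24, adjusted p = 5.08e-07 and in H2-Ob by 1.73 ± 0.24, adjusted p = 1.97e-05, and cDC1 exceeded cDC2 in H2-Ob by 0.68 ± 0.21, adjusted p = 0.0360, a call lost without control library 1 (0.76, adjusted p = 0.0646), control library 2 (0.51, adjusted p = 0.215) and stress library 2 (0.58, adjusted p = 0.148). With Leiden clusters in place of the gates the H2-Ob difference of cDC2 from macrophages was 1.02. Against resting B cells cDC2 were lower in H2-Oa (-0.78 ± 0.15, adjusted p = 1.32e-04) and in H2-Ob (-2.37 ± 0.18, adjusted p = 3.28e-10). In pDC H2-Oa was below the mean of cDC2 without passing the test (184 and 129.7 CPM in the stress libraries; -0.79 ± 0.33, adjusted p = 0.0579 relative to cDC2), the 1 member of 10 that was not called lower there. Macrophages were above monocytes in H2-Oa (1.03 ± 0.31, adjusted p = 0.0157), which did not hold without control library 1 (0.67, adjusted p = 0.212), control library 2 (0.99, adjusted p = 0.0506) and stress library 1 (1.02, adjusted p = 0.0590).

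Group 2 innate lymphoid cells (ILC2), tissue lymphocytes marked by Gata3 and Il1rl1 that make type 2 cytokines, held H2-Oa with its partner H2-Ob near the T-cell level. H2-Oa was 106, 79.8, 134 and 100.5 CPM in ILC2 and 17.1, 15.5, 11.3 and 11.6 CPM in T cells. All 4 ILC2 values lay above all 4 T-cell values. The difference was 2.88 ± 0.38, adjusted p = 1.92e-12, the 1 call among 6 members tested, where 7.26% of 6677 genes were higher in ILC2. The median of the 6 was 0.26, against -0.11 over all genes. Over the 144 ILC2 there were 50 UMIs of H2-Oa, against 3 of H2-Ob, 3 of H2-DMb1 and 3 of H2-DMb2. H2-Aa was 9.66, 74.5, 22.4 and 172 CPM in ILC2, overlapping the T-cell range, and was not past the test (0.17 ± 0.35, adjusted p = 0.844). The B-cell marker Cd79a was 0, 21.3, 22.4 and 14.4 CPM in ILC2, and the T-cell markers Cd3e and Cd3d were at 0 in all 4 libraries, where cells passing the T-cell gate had been typed as T cells. The whole T-cell list summed to 1101, 920.4, 1007 and 804 CPM in ILC2, against 7031, 5808, 7319 and 6857 CPM in T cells, and its part in the ILC2 values was not tested. The whole B-cell list summed to 14.5, 144, 44.7 and 215 CPM in ILC2, against 8595, 8283, 7864 and 8577 CPM in resting B cells. NK or ILC1 cells had 0, 3.84, 27.7 and 7.38 CPM of H2-Oa, below all ILC2 values. A UMI of H2-Oa was found in 29.6% ± 6.59 of ILC2 and 4.26% ± 1.32 of T cells (SD, n = 4; median depths 3399 and 2951 UMIs), and in 9.81% and 1.45% at 1000 UMIs per cell. Group 3 cells were too few to fit, with 18 in all.

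**Figure D4:**
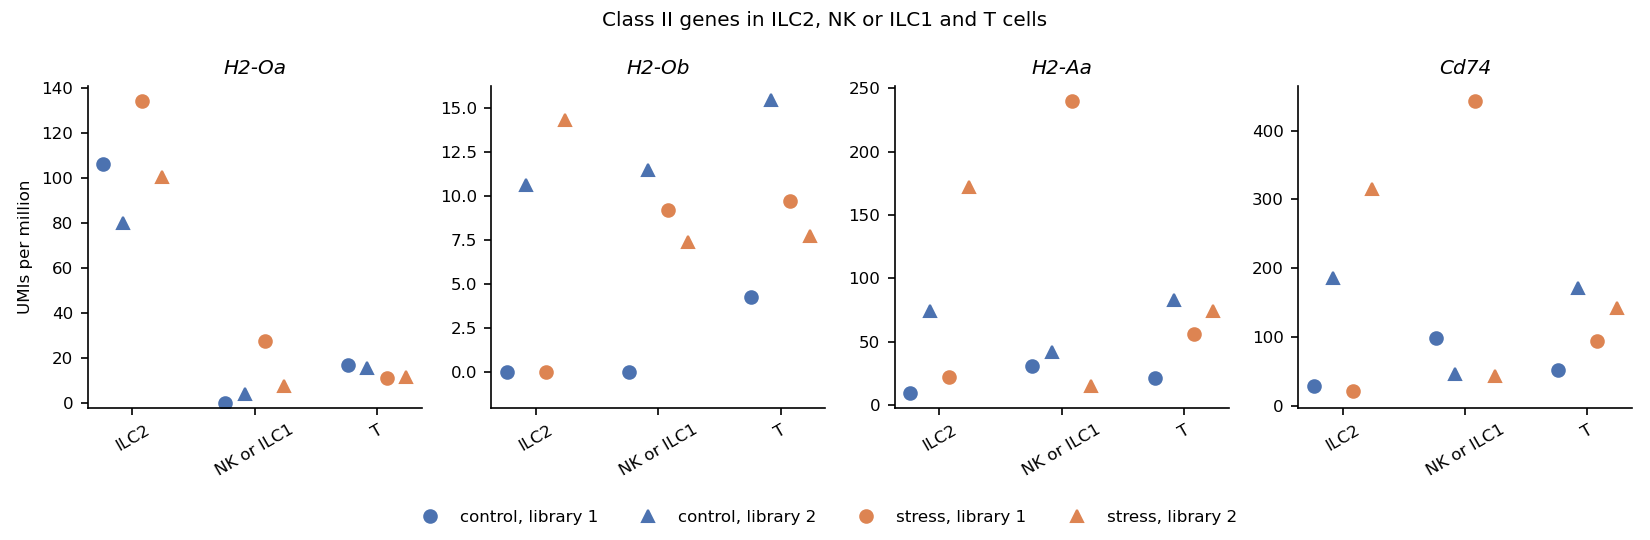
Level (CPM) of H2-Oa, H2-Ob, H2-Aa and Cd74 in ILC2, NK or ILC1 cells and T cells, a point for each library. H2-Oa lies between 79.8 and 134 CPM in ILC2 and reaches 27.7 CPM at most in the other types, whereas H2-Ob reaches 15.5 CPM at most in all 3.

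The study compared stress with control, and in this contrast 2 of 112 member values tested in 13 cell types passed, Ciita in cDC2 and H2-Ob in plasma cells. In cDC2, Ciita was 65.3, 70.7, 127 and 192 CPM. Both stress libraries lay above both controls, stress library 2 highest. The change was 1.19 ± 0.28, adjusted p = 0.0195, 1 of 10 members higher where 1.86% of 5377 genes were higher, with a median of the 10 of -0.15 against 0.00 over all genes. It did not pass in DESeq2 (1.18, adjusted p = 0.194) or without stress library 2 (0.86, adjusted p = 0.420), and kept its call in 11 of 13 alternatives. As a share of cells, Ciita UMIs were found in 36.6, 38.8, 42.9 and 72.1% of cDC2, and in 0.221, 0.417, 0.361 and 1.80% of T cells (median depths 6974 and 2951 UMIs). The exact permutation test of these shares gave p = 0.333, the smallest that 2 against 2 libraries allow. The shares were not matched in depth: the median over all cells was 2913, 2654, 2091 and 4419 UMIs in the libraries. Thinned to 1000 UMIs per cell, the cDC2 shares were 1.45, 6.12, 8.79 and 21.7%. Thinned to 500 UMIs they were 5.63, 0, 5.49 and 4.92%, highest in control library 1. cDC2 of control library 1 carried 2.43% immunoglobulin UMIs against at most 0.261% in the others, and with immunoglobulin genes left out of the fit the call was kept. The monocyte list was 981, 1873, 2904 and 2815 CPM and the cDC2 list 4308, 3316, 2972 and 2874 CPM in these cells, and their part in the change was not tested. In plasma cells H2-Ob was 65.6, 57.1, 32.2 and 30.3 CPM, both controls above both stress libraries, a change of -1.01 ± 0.17, adjusted p = 0.0371, 1 of 10 members lower where 0.396% of 9333 genes were lower (median of the 10 -0.65, of all -0.01). This call was lost in DESeq2 (-1.02, adjusted p = 0.0773), with doublets kept (-0.76, adjusted p = 0.132), and without control library 1 (-0.89, adjusted p = 0.0515) and stress library 2 (-0.98, adjusted p = 0.0871). The B-cell list summed to 3876, 3024, 2472 and 2163 CPM in plasma cells, lower in both stress libraries, and its part was not tested.

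In the other 11 cell types 0 members passed edgeR's quasi-likelihood test, and 0 passed in DESeq2. An unadjusted p under 0.05 in edgeR's test was found for 17 of 92 member values, beside 4931 of 63836 gene values (7.72%) in the same fits. The 92 values repeat the same genes over cell types of the same 4 libraries. They are not independent, so no excess is read from them. Over all genes the share changed was 0.0295% in resting B cells, 0.0352% in activated B cells, 0% in germinal centre B cells, 1.08% in other B cells, 0.0938% in C1q-low monocytes (0.0782% higher, 0.0156% lower), 0.372% in monocytes in transition (0.0438% higher), 0.787% in C1q-high macrophages, 0.0955% in cDC1, 0.0582% in ILC2, 0.14% in NK or ILC1 cells and 0.0201% in T cells. Log2 changes of the chains H2-Aa, H2-Ab1 and H2-Eb1 ran from -0.39 (H2-Aa in cDC1) to 0.32 (H2-Ab1 in monocytes in transition) in the 9 presenting types other than plasma cells. In resting B cells, for instance, H2-Ab1 stood at 4201, 5384, 4573 and 4422 CPM, with overlapping groups (-0.07 ± 0.18, adjusted p = 0.976). H2-Aa had a lower mean under stress in 9 of the 10 presenting types, with both controls above both stress libraries in 6. The counts were 8 and 3 for H2-Ab1 and 8 and 4 for H2-Eb1, with the reverse split in 2 and 1 types. Control library 1 was the highest for H2-Aa in 8. These types share the same 4 libraries, and how many of all genes split this way was not counted.

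**Figure D5:**
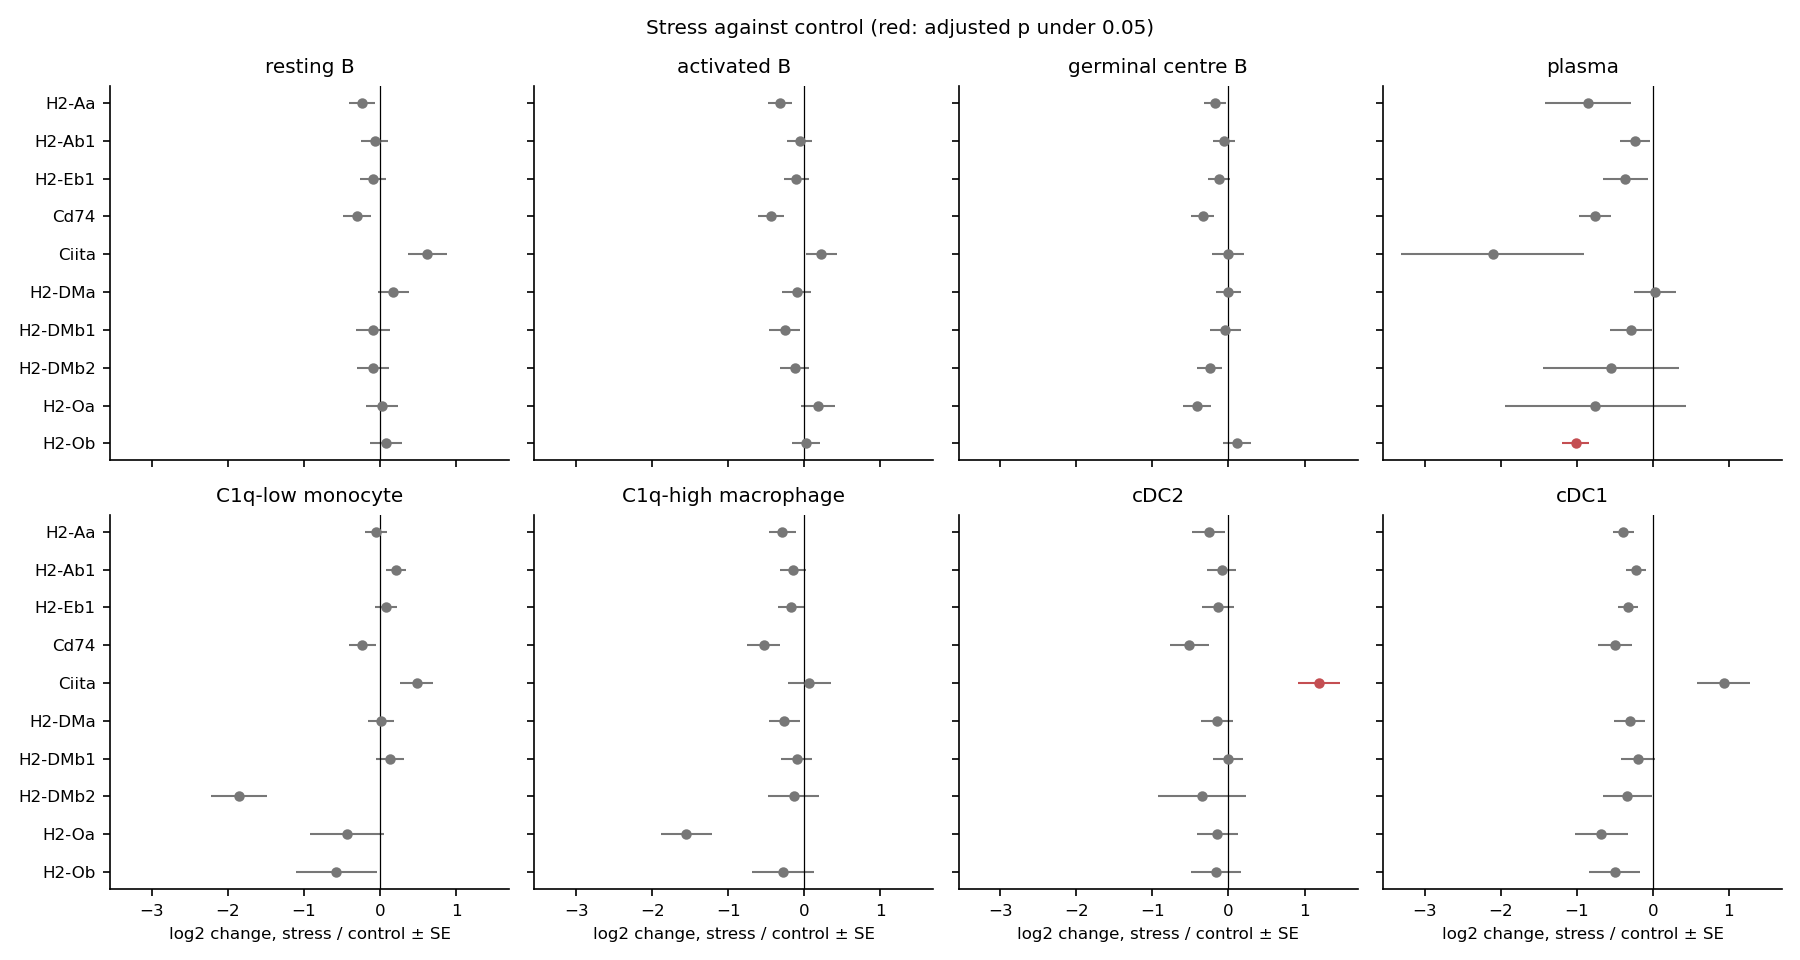
Log2 change (stress over control, ± SE) of each of the 10 genes in 8 cell types from edgeR's quasi-likelihood fits. Ciita in cDC2 (1.19) and H2-Ob in plasma cells (-1.01) are the 2 values past an adjusted p of 0.05, in red.

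Ciita had a higher mean under stress in 9 of the 10 presenting types, and both stress libraries lay above both controls in 7: resting B cells, activated B cells, other B cells, C1q-low monocytes, monocytes in transition, cDC2 and cDC1. In cDC1 it was 69.01, 133, 178 and 222 CPM (0.93 ± 0.35, adjusted p = 0.799), and in other B cells 110.1, 114, 151 and 191 CPM (0.57 ± 0.17, adjusted p = 0.0910). Neither passed. The 10 presenting types share the same 4 libraries and are not independent, and the difference between types was not tested. Among the 9, germinal centre B cells had a fitted Ciita change of -0.006, opposite in sign to the means, so no direction is given there. In C1q-high macrophages the Ciita means were 128.4 CPM under stress and 127.8 CPM in control. How many of all genes split this way was not counted. Cd74 had a lower mean under stress in 10 of 10 presenting types, with log2 changes from -0.76 in plasma cells to -0.10 in monocytes in transition, none past the test. The share of all genes with 1 direction in all 10 types was not counted either. Control library 1 was the highest for Cd74 in all 10, and in monocytes in transition the sign turned without it (0.46, adjusted p = 0.00431).

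Within the phagocytes, H2-DMb2 was 96.5, 58.1, 14.4 and 27.4 CPM in C1q-low monocytes, both controls above both stress libraries, and 112, 41.7, 77.2 and 97.99 CPM in C1q-high macrophages, with overlapping groups. The change was -1.86 ± 0.37, adjusted p = 0.0965 in the monocytes and -0.14 ± 0.34, adjusted p = 0.941 in the macrophages. In the macrophages the mean level was higher under stress, opposite in sign to that fitted change, so no direction is given there. The difference between these 2 changes was 1.95 ± 0.39, adjusted p = 0.0138, the 1 member of 10 past the test of the interaction, where 0.136% of 5871 genes passed in that direction (median of the 10 -0.25, of all 0.02). It was 0.37, adjusted p = 0.918, with Leiden clusters in place of the gates, and was also lost in DESeq2 (2.09, adjusted p = 1.00), with doublets kept (1.57, adjusted p = 0.0865), with no library block (1.69, adjusted p = 0.812) and without stress library 1 (1.75, adjusted p = 0.235). In the monocytes Cd79a was 17.5, 53.00, 20.7 and 17.4 CPM, and the summed B-cell list 84.8, 215, 68.6 and 86.8 CPM, both highest in control library 2. The summed cDC2 list was 514, 310.5, 407 and 420.0 CPM. The part of B or dendritic cells in these H2-DMb2 values was not tested. H2-Oa in C1q-high macrophages was 57.7, 59.6, 23.2 and 19.4 CPM, both controls above both stress libraries (-1.55 ± 0.34, adjusted p = 0.0512). With relative log expression size factors it passed (-1.55, adjusted p = 0.0490), and so it did with no filter on low counts (-1.54, adjusted p = 0.00918) and without control library 2 (-1.57, adjusted p = 8.97e-04). With Leiden clusters it was -0.67, adjusted p = 0.782.

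The genes around the set were read from a list of 48 genes of the pathway that the tables hold: promoter factors, inducers of Ciita, proteases, turnover and partner receptors. In cDC2 under stress, Irf1 and Spi1 were higher. Irf1, a transcription factor of the interferon response, was 119, 105, 295 and 348 CPM (1.46 ± 0.22, adjusted p = 5.18e-04). Spi1 (PU.1), a factor of myeloid and B cells, was 263, 286, 493 and 505 CPM (0.81 ± 0.20, adjusted p = 0.0264). For both genes the stress libraries lay above both controls, as they did for Ciita in the same cells. Irf1 is known to act upstream of Ciita in interferon-gamma signalling, and whether it did so in these cells was not tested. The Irf1 change kept its call in DESeq2 and ran from 1.27 to 1.65 over DESeq2 and each library left out. As given above for Ciita, the monocyte list was higher and the cDC2 list lower in both stress libraries of these cells. Their part in the Irf1 and Spi1 changes was not tested. Spi1 lost its call in DESeq2 (0.81, adjusted p = 0.142) and without control library 2 (0.76, adjusted p = 0.0831), stress library 1 (0.82, adjusted p = 0.108) and stress library 2 (0.80, adjusted p = 0.197). In plasma cells, where 0.0643% of all genes were higher and 0.396% lower, the receptor chain Ifngr2 was 27.6, 32.1, 7.03 and 10.5 CPM (-1.77 ± 0.29, adjusted p = 0.0323) and the protease Ctss, which trims the invariant chain, 569.6, 455, 260.5 and 246 CPM (-1.06 ± 0.14, adjusted p = 0.0127). Both were lower in each stress library than in each control, with calls kept in DESeq2 and without each library in turn. The B-cell list (3876, 3024, 2472 and 2163 CPM) and the mononuclear phagocyte list (989, 771, 575 and 574 CPM) were also lower in both stress libraries of plasma cells. Ctss itself makes up 569.6, 455, 260.5 and 246 CPM of the phagocyte list, so that list is no separate measure beside Ctss. The part of B cells or phagocytes in these values was not tested. In C1q-high macrophages Cd4 was 54.3, 41.7, 1.93 and 12.1 CPM (-2.72 ± 0.50, adjusted p = 0.0191) and Lag3 41.6, 17.9, 1.93 and 7.26 CPM (-2.85 ± 0.57, adjusted p = 0.0318). Both encode receptors for class II molecules, and both were lower in each stress library than in each control. DESeq2 gave no adjusted p for either. Cd4 was lost without control library 1 (-2.36, adjusted p = 0.458) and stress library 1 (-2.11, adjusted p = 0.185), and Lag3 without stress library 1 (-2.31, adjusted p = 0.294) and stress library 2 (-4.10, adjusted p = 0.181). Without stress library 2 Cd4 was -4.64, adjusted p = 0.0311. The T-cell list was 102, 304, 15.4 and 82.3 CPM in these macrophages, highest in control library 2. It includes Cd4 itself (54.3, 41.7, 1.93 and 12.1 CPM), so it is no separate measure beside Cd4. The macrophage list was 47324, 24296, 25011 and 27136 CPM, highest in control library 1. The part of either list in these changes was not tested. In the other 10 cell types none of the tested pathway genes passed.

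Between cell types the same list changed in both directions. From resting to germinal centre B cells 7 higher and 25 lower of 41 tested passed, where 27.4% of all genes were higher and 55.5% changed. The interferon-gamma receptor chains Ifngr1 (-0.90 ± 0.13) and Ifngr2 (-2.68 ± 0.20), the protease Ctss (-1.75 ± 0.11) and the class II-like H2-Eb2 (-0.86 ± 0.14) were lower, and Bcl6, the factor that sets the germinal centre state, was higher (1.59 ± 0.20; log2 ± SE). In plasma cells 12 higher and 21 lower of 43 tested passed, where 30.9% of all genes were higher and 61.1% changed. Prdm1, a repressor of Ciita in plasma cells, was higher (5.58 ± 0.29), and the Ciita inducers Spi1 (-1.13 ± 0.16) and Pax5 (-5.35 ± 0.38) and the ubiquitin ligase March1, which removes class II from the surface (-5.05 ± 0.47), were lower. Some of these genes, such as Bcl6, Prdm1 and Pax5, are also markers of the types, though none was used in the gates. From C1q-low monocytes to C1q-high macrophages 9 higher and 3 lower of 39 tested passed, where 9.54% of all genes were higher and 8.62% lower. The endosomal proteases Lgmn (1.60 ± 0.12), Ctsl (1.05 ± 0.23), Ctsb (0.87 ± 0.16) and Ctss (0.46 ± 0.09) rose with the class II chains, and Cd86, a costimulatory ligand, rose by 0.62 ± 0.14. From resting B cells to cDC2 21 higher and 7 lower of 41 tested passed, where 29.2% of all genes were higher and 25.9% lower, with Cst3, a protease inhibitor abundant in dendritic cells, at 4.55 ± 0.23, Ctss at 1.81 ± 0.14 and H2-Eb2 at -5.54 ± 0.37. Migratory dendritic cells exceeded cDC2 in H2-Eb2 (5.23 ± 0.64, adjusted p = 5.97e-06) and had less March1 (-3.23 ± 1.01, adjusted p = 0.0246), with Cd40 (1.36 ± 0.34) and Cd274 (1.63 ± 0.33) higher, 5 higher and 3 lower of 33 tested passing in all, where 11.5% of all genes were higher and 12.2% lower.

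The profile of the core genes was compared with that of every other gene over 15 cell types, as Pearson's r of the mean log2(CPM + 1) with the mean profile of H2-Aa, H2-Ab1, H2-Eb1 and Cd74 (a description: the types share 4 libraries and depth). Among the members it was 0.95 for Ciita, 0.93 for H2-DMb1, 0.89 for H2-DMb2, 0.88 for H2-DMa, 0.71 for H2-Ob and 0.52 for H2-Oa. Of genes outside the set with at least 20 CPM in 1 type or more, the 8 closest were Ly86 (0.95), which encodes MD-1, a partner of the Toll-like receptor relative RP105, Ctsh (0.94), a cathepsin, BC028528 (0.92), Fgd2 (0.92), an activator of the GTPase Cdc42, Pld4 (0.92), an exonuclease of endosomes, Gm6377 (0.91), Plekho1 (0.91) and Renbp (0.90). Ly86 averaged 640.0 CPM in C1q-high macrophages, 387 CPM in resting B cells and 2.31 CPM in T cells. Like the core genes it was lower in germinal centre than in resting B cells (-1.07 ± 0.10, adjusted p = 3.59e-11).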

How the data were processed

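Single-cell libraries of sorted CD45+ colon leukocytes were deposited as 4 tables of UMI counts per gene and barcode (whole numbers, not normalized). Per the submitters' processing notes, Cell Ranger (version 5.0) and mm10 were used, and the matrix headers name software version 3.1.0. Every barcode column belongs to a labelled library (0 columns of other samples). The genes and the gene lists were chosen with earlier results of these data known.

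Barcodes under 500 UMIs or over 10% mitochondrial UMIs were dropped. Doublets scored by the Scrublet method in scanpy 1.11.5 were left out: the automatic threshold was used in control library 2, and in the other libraries the top scores at 0.8% per 1000 barcodes. A type needed 3 UMIs from 2 genes of its marker list (3 genes for plasma cells) and a set rate per 10000 non-immunoglobulin UMIs; no class II or pathway gene was read. Phagocytes were C1q-low under 10 and C1q-high from 60 macrophage-marker UMIs per 10000. These thresholds, and the markers dropped as too broad, were set after seeing the data, and 264 barcodes of mixed and 1739 of no type were left out. Median depth per library was 2091 to 4419 UMIs.

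Counts were summed per library and type (at least 10 cells) and fitted across all genes with edgeR 4.0.16 in R 4.3.3 (TMM, filterByExpr, robust quasi-likelihood test, Benjamini-Hochberg adjusted p under 0.05): stress against control within a type without a block, types against each other with the library as a block. Standard errors are the log2 change over the root of F. The scripts were tested on simulated data. Shares have an exact permutation test over libraries. Named genes are the 10 members, the pathway genes past a test and the 8 genes closest in profile. Alternatives were relative log expression size factors, no filter on low counts, DESeq2 1.42.0, a mitochondrial limit of 25%, at least 1000 UMIs, doublets kept, Leiden clusters, each library left out, a replicate block, and, chosen after seeing the data, immunoglobulin genes left out, a crossed block, and DESeq2 and each library left out for the pathway genes. H2-Ea, H2-Ea-ps and Ifi30 were not analysed here, and 1 gene of the pathway list is not reported here.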

Additional observations from a re-analysis of the deposited data

Results flagged for a closer look

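The stress change of H2-DMb2 differed between 2 cell types under the same contrast: that in C1q-high macrophages minus that in C1q-low monocytes was 1.95 ± 0.39 on the log2 scale (interaction term in edgeR's quasi-likelihood test, adjusted p = 0.0138). H2-DMb2 was lower in both stress libraries than in both controls in the monocytes, and its groups overlapped in the macrophages. Over 13 alternatives the difference ran from 0.37 to 2.51, and the call was kept in 8.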

How the results depend on the processing

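Of the stress comparisons, the count of members called moved with no filter on low counts to 1 in other B cells, 3 in plasma cells, and 1 each in C1q-low monocytes, C1q-high macrophages and NK or ILC1 cells. It moved with doublets kept to 0 in plasma and 3 in NK or ILC1 cells, with relative log expression size factors to 1 in C1q-high macrophages, and in DESeq2 to 0 in plasma cells and cDC2. Leaving out 1 library gave 0 in resting, activated and germinal centre B cells and NK or ILC1 cells, 0 to 1 in other B cells, C1q-low monocytes and cDC1, 0 to 2 in plasma cells, C1q-high macrophages and ILC2, 0 to 3 in cDC2 and T cells and 0 to 4 in monocytes in transition, where the stress change of Cd74 ran from -0.48 without control library 2 to 0.46, adjusted p = 0.00431 without control library 1. Between cell types, DESeq2 called 0 in activated against resting B cells, 4 in transition against C1q-low monocytes (5 with no filter), 0 in cDC1 against cDC2 (2 with no filter, 2 with Leiden clusters) and 3 in migratory dendritic cells against cDC2. Without a library, counts ran over 1 to 3 (activated), 9 to 10 (germinal centre) and 9 to 10 (plasma) against resting B, 4 to 9 (transition against monocyte), 6 to 8 (macrophage against monocyte), 2 to 4 (macrophage against transition), 3 to 7 (cDC2 against macrophage), 0 to 1 (cDC1), 3 to 5 (migratory) and 9 to 9 (pDC) against cDC2, 9 to 10 (cDC2 against resting B), 1 to 1 (ILC2 against T) and 0 to 3 (interaction). The interaction count was 0 in DESeq2, with doublets kept and with Leiden clusters. Shares of cells moved with depth: at 500 and 1000 UMIs per cell, H2-Oa in ILC2 was 6.65% and 9.81%, any chain in C1q-low monocytes 73.8% and 76.6%, any chain in plasma cells 20.3% and 32.3% (unthinned 93.9%), Cd74 in plasma cells 48.4% and 69.9%, and Ciita in cDC2 4.01% and 9.51% (unthinned 47.6%). These depths included immunoglobulin UMIs, the larger part of UMIs in plasma cells. In the pairing check, deviations of same-numbered stress and control libraries correlated at -0.17 to 0.07. That shows no strong signal shared by number. With 2 libraries a group it cannot tell whether same-numbered libraries share a batch, and the labels state no pairing. The replicate block called 1 member in plasma cells, 1 in cDC2 and 0 in the other 11 types, and numbers crossed in the block called 0 in resting B and T cells. Without the library block between cell types, 0 members were called in activated B cells, 3 in transition against C1q-low monocytes, 3 in cDC2 against macrophages, 0 in cDC1, 3 in migratory dendritic cells and 0 in the interaction. The causes of these moves were not tested. Of the alternatives for called members, 837 between cell types kept the call and 103 lost it. Group 3 innate lymphoid cells reached too few cells for either fit. With 2 libraries a group, Ciita, H2-Oa and H2-Ob in ILC2, cDC1, pDC and migratory dendritic cells rest on few UMIs, and small differences were not detectable at this depth. The same holds for H2-DMb1 and H2-DMb2 in migratory dendritic cells.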
